A study of Mus musculus with 22 samples.

Results

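The 9 genes described here are Csf1r, C1qa, C1qb, C1qc, Cd68, Mrc1, Vsig4, Emr1 and Cd5l, genes by which macrophages of the fetal liver are recognised. They were taken by name as a marker list, not by a threshold on measured values, and are 9 of the 37,991 genes in the deposited count tables. Each was followed in RNA-seq of E14.5 fetal livers and in whole-genome bisulphite sequencing of whole embryos at E10.5 and of livers at E14.5 and E18.5. RNA-seq had 3 livers of each genotype, and bisulphite sequencing had 2 samples of each genotype at each stage, 12 libraries in all. The wild-type group is Rlf+/+ and the mutant group is Rlf MommeD28/MommeD28, homozygous for an ENU-induced null allele of Rlf, a gene for a zinc finger protein. Both genotypes are of the inbred FVB/NJ line Line3, and both carry a homozygous multi-copy GFP transgene driven by a human α-globin promoter with the HS-40 enhancer, which is active in red cells. The mutation is carried in every cell of the embryo, so no value below belongs to macrophages alone. The E10.5 embryos are all labelled male, the E14.5 livers are male for replicate 1 and female for replicate 2 in bisulphite sequencing, the E18.5 livers are all female, and the RNA-seq livers are male for replicates 1 and 2 and female for replicate 3.

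On mm9 (NCBIM37), Csf1r lies on chromosome 18 (61265226 to 61291803, plus strand), Mrc1 on chromosome 2 (14151041 to 14253684, plus strand), Emr1 on chromosome 17 (57498109 to 57622952, plus strand) and Cd5l on chromosome 3 (87161803 to 87174996, plus strand). Cd68 lies on chromosome 11 (69477715 to 69479655, minus strand) and Vsig4 on chromosome X (93442542 to 93488777, minus strand). The C1q genes share the minus strand of chromosome 4, in the order C1qb (136436044 to 136442102), C1qc (136445719 to 136448980) and C1qa (136451832 to 136454718). Rlf itself is on the same chromosome (120817978 to 120887689, minus strand), 15.55 Mb from the C1q cluster.

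Macrophages of the fetal liver descend largely from yolk sac and fetal monocyte precursors that settle in the organ while it makes blood. They sit at the centre of erythroblastic islands, where they hold maturing red cell precursors and digest the nuclei those cells expel, and they also clear dying cells and debris. Csf1r encodes the receptor through which the growth factors CSF1 and IL-34 keep these cells alive. C1qa, C1qb and C1qc encode the chains of C1q, which starts the classical complement cascade and marks debris for uptake, and are neighbours in a single cluster. Cd68 encodes a lysosomal glycoprotein, Mrc1 the mannose receptor, Vsig4 a receptor for complement fragments, and Emr1 the surface protein F4/80. Cd5l encodes AIM, a secreted scavenger receptor-like protein that circulates with IgM and whose gene is a known target of the nuclear receptor LXR.

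Of the 9 genes, Cd5l was the one whose RNA differed between the genotypes and Mrc1 the one whose promoter methylation differed most between stages. Their sequences are therefore shown, read from the mm9 reference, plus strand, 5′ to 3′, with every CpG in capitals and distances counted from the start of the gene. The 250 bases before Cd5l (chr3:87161553-87161802) hold no CpG in mm9. No CpG covered by 6 or more reads in all 12 libraries lies in them either, so the CpGs measured for Cd5l lie outside them. The FVB/NJ sequence of these bases was not examined. Another stretch lies in the last intron of Cd5l (chr3:87173298-87173418, between exons 5 and 6 of 6). The stretches of Mrc1 lie before the gene (chr2:14150731-14150950) and in its first intron (chr2:14151591-14151841 and chr2:14154351-14154541). The stretches of Mrc1 and the intron stretch of Cd5l hold CpGs that were low in the E14.5 livers. Those of Mrc1 at chr2:14151591-14151841 were above 60% in the E18.5 livers. The intron stretches and the one before Mrc1 were chosen after their values were seen.
Cd5l, 250 bases before the start: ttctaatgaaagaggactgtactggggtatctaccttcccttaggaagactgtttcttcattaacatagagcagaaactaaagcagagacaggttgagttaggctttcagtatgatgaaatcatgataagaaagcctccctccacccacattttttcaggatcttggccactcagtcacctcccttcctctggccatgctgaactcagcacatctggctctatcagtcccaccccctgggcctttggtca
Cd5l, last intron: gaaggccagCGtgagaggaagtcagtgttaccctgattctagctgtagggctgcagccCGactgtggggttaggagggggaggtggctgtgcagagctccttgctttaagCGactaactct
Mrc1, before the start: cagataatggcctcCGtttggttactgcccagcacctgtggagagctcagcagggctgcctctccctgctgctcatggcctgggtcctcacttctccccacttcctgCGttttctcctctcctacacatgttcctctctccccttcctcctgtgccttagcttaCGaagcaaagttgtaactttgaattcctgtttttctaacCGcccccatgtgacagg
Mrc1, first intron, near the start: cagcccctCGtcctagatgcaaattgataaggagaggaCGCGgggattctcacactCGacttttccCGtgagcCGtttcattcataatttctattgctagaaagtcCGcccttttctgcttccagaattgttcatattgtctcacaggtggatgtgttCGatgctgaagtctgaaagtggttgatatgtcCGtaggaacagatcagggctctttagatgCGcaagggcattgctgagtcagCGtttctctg
Mrc1, first intron, farther in: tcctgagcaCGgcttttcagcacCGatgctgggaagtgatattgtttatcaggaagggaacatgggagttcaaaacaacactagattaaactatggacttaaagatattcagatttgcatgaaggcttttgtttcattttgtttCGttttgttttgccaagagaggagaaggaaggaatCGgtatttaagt
The letters GAGGAA were searched on both strands of RefSeq promoters (GRCm38.p6, 300 bases around each start), since the macrophage factor PU.1 binds purine-rich sequence with GGAA at its core. They occur in 28.3% of the 32,851 promoters. The table holds 6 of the 9 genes, and all 6 have them: Mrc1 has 3 matches, Cd68 and Vsig4 have 2 each, and C1qb, C1qc and Cd5l have 1 each. A match describes letters and is not a binding site. The median promoter of that table holds 7 CpGs, against 0 for Cd5l, 3 for Mrc1, C1qc and Vsig4, 4 for Cd68 and 6 for C1qb.

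The RNA-seq libraries held 12,928,313 to 14,621,004 counts and the bisulphite libraries 16.8 to 35.4 reads per CpG, the E14.5 livers being the deepest. Rlf RNA was at 70.0, 72.3 and 68.9 in wild-type livers in counts-per-million units (CPM) and 76.3, 79.8 and 67.6 CPM in mutant livers (log2 fold change 0.08, SE 0.0703, adjusted p = 0.646), so the RNA level of Rlf does not check the genotype labels. Over the autosomes, 70.6% to 73.9% of reads over CpGs were methylated at E10.5, 56.4% to 60.3% at E14.5 and 61.4% to 65.5% at E18.5. The 65.5% belongs to replicate 1 of the E18.5 mutants, which stood above the other 3 livers of that stage. Genotype and stage results at E18.5 are summarised with and without it, while values of single genes and windows mostly include it.

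The first comparison asked whether the RNA of macrophage genes differed between mutant and wild-type E14.5 livers. Cd5l fell in the mutants, and no other of the 9 genes passed the test. All 9 passed the filter on low counts, and in edgeR (quasi-likelihood test, Benjamini-Hochberg adjustment over 14,183 genes) 1 was lower and 0 were higher. Of all genes tested, 1.39% were called, 0.691% lower and 0.698% higher. The log2 fold change, mutant over wild type, was above 0 for 5 members and below 0 for 4. Its median was 0.06 over the members and -0.0017 over all genes. These are whole livers, so fewer macrophages and less RNA per macrophage cannot be told apart.

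Cd5l stood at 130, 88.5 and 102 CPM in the wild-type livers and at 53.6, 37.6 and 49.4 CPM in the mutant livers. Every mutant liver was below every wild-type liver, with a wide gap between the groups. The means were 107 CPM ± 21.4 and 46.9 CPM ± 8.31 (SD, n = 3 each). The log2 fold change was -1.19 (SE 0.142, edgeR adjusted p = 0.00187), a level 2.28-fold lower in the mutants with a 95% interval of 1.88 to 2.77. By p-value Cd5l ranked 17 among the 14,183 genes. With any one liver left out the log2 fold change was -1.31 to -1.03, and the adjusted p stayed at or under 0.00836.

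Per length of annotated exon, Cd5l was the second most abundant of the 9 genes in wild-type liver, at 52.6 RPKM, after C1qb at 53.9 RPKM. RPKM is CPM divided by the exon length in kilobases, with the exons of all annotated transcripts of a gene merged. In mutant liver it stood at 23.0 RPKM, below C1qb at 51.0, C1qa at 48.7 and C1qc at 28.1 RPKM. The summed CPM of the other 8 members was 378, 386 and 349 in wild-type livers and 380, 352 and 378 in mutant livers, ranges that overlap nearly fully. The ratio of Cd5l to that sum was 0.346, 0.229 and 0.293 in wild-type livers and 0.141, 0.107 and 0.131 in mutant livers. Cd5l was thus lower also relative to the other members.

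**Figure D1:**
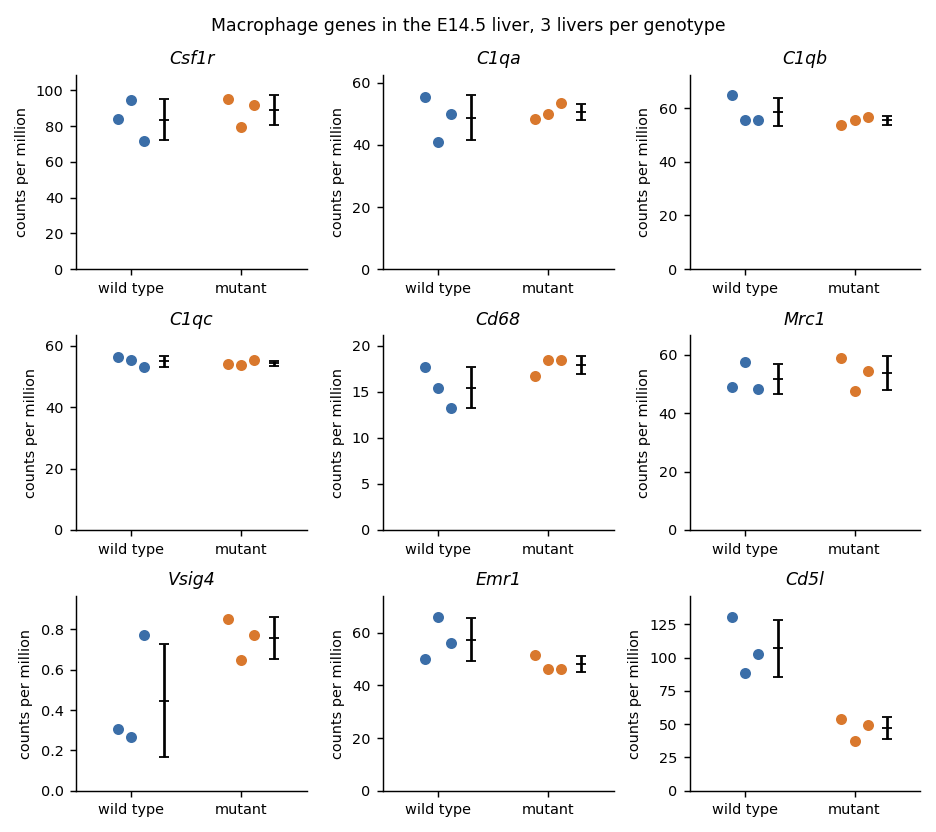
RNA of the 9 macrophage genes in CPM (vertical axes, each from 0) in the 3 wild-type (blue) and 3 mutant (orange) E14.5 livers. Points are single livers and bars are the mean ± SD. The groups are apart for Cd5l, at 107 against 46.9 CPM on average, and overlap for the other 8.

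Csf1r, the growth factor receptor, was at 83.9, 94.7 and 71.9 CPM in wild-type livers and 95.2, 79.4 and 91.9 CPM in mutant livers. The groups overlapped, and the log2 fold change was 0.09 (SE 0.0964, edgeR adjusted p = 0.731). Its 95% interval, from the standard error, ran from -0.10 to 0.28.

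C1qa, C1qb and C1qc encode chains of a single protein and were measured at similar levels in CPM. Per length of annotated exon C1qc was lower, at 28.5 RPKM in wild-type liver against 46.9 for C1qa and 53.9 for C1qb. Its merged exon length is 1931 bp, against 1040 bp for C1qa and 1088 bp for C1qb, so the gap in RPKM depends on that length. C1qa was at 55.4, 41.0 and 49.9 CPM in wild-type livers and 48.4, 49.997 and 53.5 CPM in mutant livers. C1qb was at 64.8, 55.5 and 55.6 CPM and at 53.9, 55.6 and 56.9 CPM in the same order. C1qc was at 56.4, 55.4 and 53.1 CPM and at 54.0, 53.7 and 55.2 CPM. In each case the groups overlapped. The log2 fold changes were 0.06 (95% interval -0.14 to 0.25) for C1qa, -0.08 (-0.23 to 0.07) for C1qb and -0.02 (-0.14 to 0.11) for C1qc, with edgeR adjusted p of 0.839, 0.685 and 0.938. All 3 intervals lie above that of Cd5l, which ran from -1.47 to -0.91.

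Cd68 was at 17.7, 15.4 and 13.3 CPM in wild-type livers and 16.8, 18.47 and 18.46 CPM in mutant livers. The mutants lay toward the upper end, but the groups overlapped (log2 fold change 0.22, SE 0.117, edgeR adjusted p = 0.427).

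Mrc1 was at 49.0, 57.5 and 48.3 CPM in wild-type livers and 59.1, 47.5 and 54.6 CPM in mutant livers. The groups overlapped (log2 fold change 0.06, 95% interval -0.13 to 0.24, edgeR adjusted p = 0.830). Hmgxb3, a neighbour of Csf1r, has an annotated end that touches that of Csf1r. The counting took no account of strand. Under the strict intersection setting named in the paper, a read within both genes counts for neither. Hmgxb3 was at 40.9 CPM in wild-type and 41.4 CPM in mutant livers.

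Emr1, which encodes the classic mouse macrophage antigen F4/80, was at 50.05, 65.9 and 56.3 CPM in wild-type livers and 51.5, 46.3 and 46.4 CPM in mutant livers. The highest mutant liver lay just above the lowest wild-type liver. The log2 fold change was -0.26 (SE 0.0955, edgeR adjusted p = 0.232). Before adjustment the p-values of 2 members were under 0.05, those of Emr1 and Cd5l, and after it only that of Cd5l was.

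Vsig4, a marker of mature tissue macrophages, was near absent, with counts of 4, 4 and 11 in wild-type and of 11, 9 and 11 in mutant livers. At this depth a difference was not detectable (log2 fold change 0.75, 95% interval -0.12 to 1.61, edgeR adjusted p = 0.467). Of the 9 macrophage markers 8 were thus clearly detected in RNA of whole liver, which does not show the cells it came from.

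**Figure D2:**
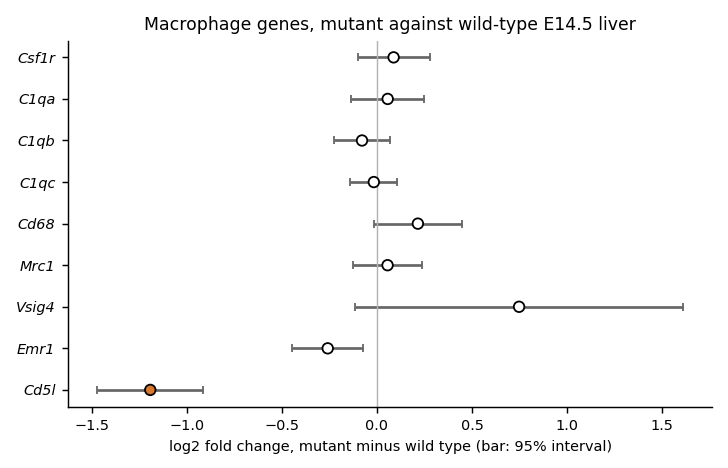
Log2 fold change of each gene's RNA, mutant minus wild type, in E14.5 liver (horizontal axis), with its 95% interval from the standard error. The filled point, Cd5l at -1.19, is the one past the threshold, and the other 8 lie between -0.26 and 0.75.

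Further macrophage genes, and markers of the other cells of the fetal liver, were read in the same fit. The lists held 175 genes, the 9 members among them, of which 171 were matched in the tables and 159 were tested. Of these, 3 were called higher and 9 lower, Cd5l included. With replicate number as a block 20 were called (6 higher and 14 lower), all 12 of these among them, and without mutant replicate 1, mutant replicate 3 or wild-type replicate 3 the count was 4, 4 and 7. In 11 of the lists no gene was called. Of the 103 genes tested in those lists, 27 had an unadjusted p under 0.05 by edgeR's test (26.2%, against 14.6% of all genes tested). Of them DESeq2, the other size factors, sex as a covariate and 4 of the 6 fits without 1 liver called 0. With no filter on low counts 7 were called, 5 higher (Alb, Stab2, Flt1, Pdgfrb and Clec4f) and 2 lower (Mcpt8 and Marco). With the block 2 were called, both lower (Marco and Lyz2). Leaving out wild-type replicate 2 gave 4 calls, all lower (Hba-a1, Hbb-b1, Marco and Cd36). Leaving out mutant replicate 2 gave 2, Pdgfrb higher and Lyz2 lower.

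None of the genes around CSF1 receptor signalling was called (0 of 11 tested, median log2 fold change 0.02). Csf1, the ligand, was at 25.7 CPM in wild-type and 27.5 CPM in mutant livers. The most abundant genes of that list, the adaptor Grb2 and the phosphatase Ptpn6, stood at 102 and 98.0 CPM and at 45.8 and 44.4 CPM. None of the 11 transcription factors tested was called (median 0.03). Nr1h3, which encodes LXRα, was at 30.6, 29.2 and 27.9 CPM in wild-type livers and 28.2, 28.3 and 30.7 CPM in mutant livers, and Spic, the factor of iron-recycling macrophages, averaged 12.1 and 10.7 CPM. Nr1h3 and Spic overlapped between the groups. The most abundant factors, Zeb2 and Maf, averaged 63.6 and 75.8 CPM and 41.5 and 45.6 CPM in wild-type and mutant livers (edgeR adjusted p = 0.109 and 0.427).

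Phagocytic and scavenger receptors likewise gave 0 calls of 18 tested, with a median of 0.02. Marco, a scavenger receptor and the most abundant of them, was at 95.8, 93.5 and 143 CPM in wild-type livers and 81.7, 75.9 and 63.1 CPM in mutant livers. Every mutant liver was below every wild-type liver, and the log2 fold change of -0.59 (SE 0.144, edgeR adjusted p = 0.0709) missed the threshold. With no filter on low counts, with replicate number as a block, or without wild-type replicate 2, Marco was called. Clec4f, another gene of that list, went the other way, averaging 10.8 and 19.0 CPM with overlapping groups. Its log2 fold change was 0.84 (SE 0.332, edgeR adjusted p = 0.267), and it was called higher with no filter on low counts. Of the 18 genes, 10 had log2 fold changes above 0 and 8 below. Axl, a receptor for dying cells, averaged 59.2 and 70.5 CPM (adjusted p = 0.108), and Timd4, another such receptor, averaged 21.8 and 24.0 CPM. Lysosomal and iron-handling genes gave 0 calls of 16 (median 0.01), with the protease Ctsb at 1307 and 1313 CPM and the reductase Blvrb at 640 and 548 CPM. With the block Lyz2, the lysozyme gene, was called lower (log2 fold change -0.31, edgeR adjusted p = 0.00822). Genes by which macrophages and erythroblasts adhere gave 0 calls of 6 (median 0.07), among them Itgb1 at 445 and 480 CPM and Vcam1 at 223 and 257 CPM.

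The partners of C1q in the classical complement pathway gave 1 call of 13, upward. With replicate number as a block, C4b (log2 fold change -0.74, edgeR adjusted p = 0.0235) and Serping1 (-0.27, adjusted p = 0.0382) were called too, both downward. C1s, a protease of the C1 complex made largely by hepatocytes and mesenchymal cells, was at 72.2, 66.4 and 67.1 CPM in wild-type livers and 88.9, 89.6 and 79.1 CPM in mutant livers. All mutants lay above all wild types (log2 fold change 0.33, SE 0.0679, edgeR adjusted p = 0.0400), but the call was kept only without mutant replicate 3 (adjusted p 0.0480 to 0.146 with 1 liver left out). C3, the most abundant gene of that list, averaged 1285 and 1384 CPM (adjusted p = 0.487), and the median of the list was 0.12. Genes of LXR and of AIM's partners gave 1 call of 13 (median 0.08). Apoe, an LXR target that hepatocytes also express strongly, averaged 1570 and 2095 CPM and was higher in all mutant livers (log2 fold change 0.42, SE 0.0830, edgeR adjusted p = 0.0334), the opposite direction to Cd5l. It kept its call without wild-type replicate 1 or mutant replicate 3, and not in the other 4 cases (adjusted p 0.0353 to 0.134). Fasn, the gene for fatty acid synthase, averaged 198 and 247 CPM (adjusted p = 0.156). With the block Abca1, a cholesterol exporter and LXR target, was called higher (log2 fold change 0.37, adjusted p = 0.0332).

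Some neutrophil granule genes were lower as well. Of 10 neutrophil and granule genes 7 fell: Elane, Camp, Ltf, Ngp, S100a8, S100a9 and Lcn2, with log2 fold changes of -0.93 to -0.67. Camp, an antimicrobial granule peptide gene, was at 63.7, 77.6 and 48.9 CPM in wild-type livers and 34.7, 34.9 and 33.0 CPM in mutant livers (log2 fold change -0.89, SE 0.132, edgeR adjusted p = 0.00647). Mpo, the most abundant gene of that list, was at 280 and 306 CPM on average (log2 fold change 0.13, adjusted p = 0.646), and Prtn3 (-0.02) and Ctsg (-0.03) were not called either. DESeq2 called 4 of the 10, namely Camp, Ngp, S100a8 and Lcn2. Summed over the list, wild-type livers held 941 to 1375 CPM and mutant livers 773 to 894 CPM, with no overlap and no marker at 0, and the median log2 fold change was -0.73. Without mutant replicate 1, or without mutant replicate 3, Camp alone of these 7 was called, and it was the one called with any liver left out (adjusted p 0.000414 to 0.0439).

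Of 8 monocyte genes 1 fell. Ly6c2, an inflammatory monocyte surface gene, was at 7.40, 7.60 and 4.98 CPM in wild-type livers and 3.65, 2.96 and 2.39 CPM in mutant livers (log2 fold change -1.16, SE 0.213, edgeR adjusted p = 0.0224). The call was lost without wild-type replicate 1, mutant replicate 2 or mutant replicate 3 (adjusted p up to 0.0896). Fn1, which hepatocytes also make, outweighs the rest of that list at 767 and 1106 CPM (adjusted p = 0.0514), so the summed level was 832 to 865 CPM in wild-type livers and 969 to 1430 CPM in mutant livers although the median log2 fold change was -0.19. F13a1, the next most abundant, averaged 27.0 and 21.3 CPM (adjusted p = 0.0806). With the block Fn1 (log2 fold change 0.51, edgeR adjusted p = 0.00692) and Chi3l3 (-1.25, adjusted p = 0.0120) were called, in opposite directions. What part neutrophils and monocytes have in the value of Cd5l was not tested.

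Other cell types gave 1 call among them. The platelet factor Pf4 rose (151 to 200 CPM on average, log2 fold change 0.40, SE 0.0682, edgeR adjusted p = 0.0143), 1 of 6 megakaryocyte genes, a call lost without wild-type replicate 3 or mutant replicate 3 (adjusted p up to 0.0665). Ppbp, the most abundant of them, averaged 207 and 233 CPM (log2 fold change 0.17, adjusted p = 0.317). With the block Itga2b, another of them, was called higher (log2 fold change 0.31, adjusted p = 0.0322). Their sum was 491 to 515 CPM in wild-type and 580 to 650 CPM in mutant livers. Hepatoblast genes gave 0 calls of 10, with Alb, Afp and the rest summing to 56556 to 67175 CPM and 69105 to 80211 CPM. Erythroid genes gave 0 of 9, with Hbb-b1 and Hba-a1 leading sums of 28724 to 53375 CPM in wild-type and 35926 to 38942 CPM in mutant livers. The lowest wild-type sum was that of replicate 2, and without that liver both globin genes were called lower in the mutants (log2 fold changes -0.46 and -0.42, edgeR adjusted p = 0.0428 and 0.0276 for Hba-a1 and Hbb-b1). Endothelial (0 of 8, led by Lyve1 and Cdh5), mesenchymal (0 of 8, led by Col3a1 and Col1a2), mast cell (0 of 4, led by Kit and Cpa3) and lymphoid genes (0 of 2, Cd79b and Il7r) gave none. Summed endothelial levels were 283 to 312 and 318 to 370 CPM, summed mesenchymal levels 749 to 988 and 815 to 1234 CPM, and both mast cell and lymphoid sums overlapped.

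**Figure D3:**
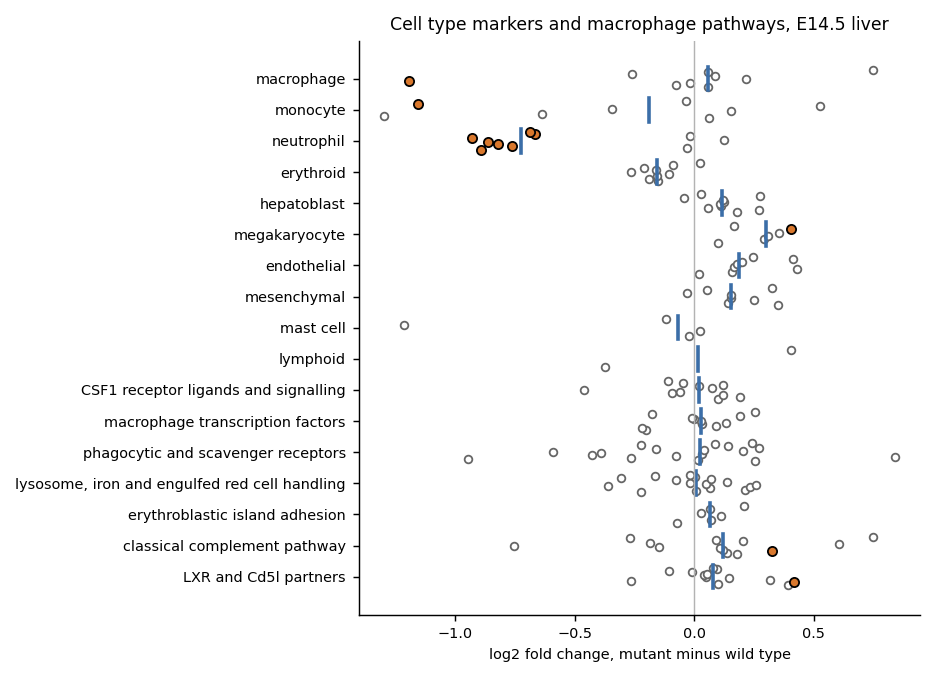
Log2 fold change, mutant minus wild type, of every tested gene of each marker and pathway list (points), with the median of each list. Filled points passed edgeR's test at an adjusted p under 0.05. The neutrophil list has a median of -0.73, with Mpo (0.13), Prtn3 (-0.02) and Ctsg (-0.03) apart from its other genes. The macrophage list and the pathway lists have medians from 0.01 to 0.12, the highest being that of the classical complement pathway.

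Genes whose RNA ran most like that of Cd5l and Csf1r over the 6 livers were ranked by Pearson's r of log2 CPM among 13,634 genes. For Cd5l they were Tbxas1 (r = 0.9978), Me2 (0.9945), Plbd1 (0.9909), Iscu (0.9901) and Fam174b (0.9896). Tbxas1, thromboxane synthase, had a log2 fold change of -0.45 (edgeR adjusted p = 0.0699) and Plbd1, a phospholipase-like gene of myeloid cells, one of -0.47 (adjusted p = 0.0607). Both were picked for likeness to Cd5l, which was lower in every mutant liver. Fold changes below 0 thus follow from that choice and are no separate result. For Csf1r they were Stap2 (r = 0.9937), Dnajc16 (0.9923), Tapbpl (0.9914), Accs (0.988) and Acin1 (0.9825). With 6 livers and so many genes, values this high are picked from a large field. What part depth and tissue composition have in them was not tested.

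The nearest protein-coding genes on either side of the members, 28 in all, gave no RNA call among the 18 tested. Beside Cd5l, Fcrl1 (5313 bp away) averaged 1.52 CPM in wild-type and 2.61 CPM in mutant livers (log2 fold change 0.77, edgeR adjusted p = 0.130). Fcrls (94143 bp away) averaged 2.82 and 3.73 CPM (0.39), and Kirrel 13.7 and 16.5 CPM (0.27). These fold changes were above 0 while that of Cd5l was below, but none was called, and Fcrl1 and Fcrls were low. Fcrl5 had 0 counts in every liver.

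The second comparison asked whether DNA methylation at these genes differed between the genotypes. It did not pass the test anywhere. Methylation is the percent of methylated reads summed over the CpGs that each of the 12 libraries covered by 6 or more reads, over the 1 kb to either side of the start (the start window) and over the whole gene (the body). The 9 bodies and 8 of the 9 start windows were tested. The window of Vsig4 kept 2 CpGs and was not tested. By edgeR's quasi-likelihood test on methylated and unmethylated counts, 0 of 8 start windows were called at E10.5, E14.5 or E18.5, against 0.605%, 0.145% and 0.198% of all 20,677 windows. Likewise 0 of 9 bodies were called, against 3.12%, 1.23% and 0.800% of all 21,007 bodies. At an unadjusted p under 0.05 by the same test, no start window and 1, 0 and 1 bodies passed at the 3 stages. With 2 libraries against 2, a modest difference can be missed.

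At Cd5l, whose RNA fell, the start window (10 CpGs) was methylated at 69.3% and 73.0% in wild-type and 72.0% and 67.7% in mutant E14.5 livers. The groups overlapped, with a difference of -1.30 points (edgeR adjusted p = 0.966). The body (85 CpGs) was at 62.3% and 65.8% in wild-type and 66.98% and 66.4% in mutant E14.5 livers. Both mutants were higher, by 2.69 points on average (adjusted p = 0.640), while the autosomes as a whole were 2.32 points higher in the mutants at that stage. The autosome differences given here were not tested. From averages over 10 kb windows, another measure, the paper describes the global level as unchanged without Rlf at each stage. The 3 CpGs shown in the last intron of Cd5l stood at 20.2% and 16.4% in wild-type and 27.0% and 23.0% in mutant E14.5 livers, over 99 to 113 reads in each. Both mutants were slightly higher there at E14.5, and at E18.5 both were lower, with 21.5% and 39.3% in wild-type and 19.5% and 16.7% in mutant livers. Of the 10 CpGs in the start window, 6 are CpGs in the mm9 reference and the rest arise from the FVB/NJ substitutions in the authors' genome.

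Among the 8 start windows tested, the largest genotype differences at E14.5 were at Emr1, Csf1r and Mrc1. The Csf1r window (19 CpGs) was at 48.2% and 46.8% in wild-type and 54.2% and 55.4% in mutant livers. The groups did not overlap, and the 7.26 points did not pass the test (edgeR adjusted p = 0.720). The Emr1 window (5 CpGs) was at 66.98% and 62.0% and at 73.3% and 70.3%, 7.35 points apart (adjusted p = 0.754). The Mrc1 window (21 CpGs) was at 40.0% and 34.7% and at 45.5% and 39.2%, which overlap, 5.02 points apart (adjusted p = 0.729). Over the 8 windows the differences ran from -1.48 to 7.35 points with a median of 0.127, against 0.425 over all windows.

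At E10.5 the differences of the start windows ran from -3.78 to 3.14 points (median 1.82, against 0.365 over all windows) and at E18.5 from -3.95 to 6.75 points (median 1.75, against 0.237). Body differences ran from -0.968 to 6.56 points at E10.5, -0.725 to 3.32 at E14.5 and -1.95 to 3.92 at E18.5. Their medians of 0.726, 2.64 and 1.24 points stand beside 1.77, 1.94 and 1.58 points over all bodies and 2.29, 2.32 and 1.93 points over the autosomes. Without mutant replicate 1, the E18.5 differences became -10.9 to 3.91 points for start windows (median 0.257, all windows 0.00747) and -4.86 to 3.48 points for bodies (median -2.66, all bodies -0.109), and the autosomes differed by -0.124 points. The higher autosome level of the E18.5 mutants thus rests on that library, and without it 6 of the 9 bodies were lower in the mutants. Again 0 start windows and 0 bodies were called. The C1qa body (61 CpGs) at E10.5 was at 53.0% and 54.2% in wild-type and 65.2% and 55.1% in mutant embryos, where mutant replicate 1 alone lay far up. Its 6.56 points missed the threshold (edgeR adjusted p = 0.191) but passed it without mutant replicate 2, at 11.6 points. The Mrc1 body (376 CpGs) at E18.5 was at 67.9% and 69.4% in wild-type and 74.5% and 69.8% in mutant livers, with mutant replicate 1 again the higher. Its 3.50 points (adjusted p = 0.563) also passed without mutant replicate 2, at 5.86 points, which leaves the library that stood apart as the lone mutant. Without mutant replicate 1 it was 1.14 points (adjusted p = 1).

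No member passed the test of whether the genotype effect differed between stages. By edgeR, 0 of 8 start windows and 0 of 9 bodies were called between E10.5 and E14.5 or between E14.5 and E18.5, and none had an unadjusted p under 0.05. The backgrounds were 0% of windows in both cases and 0.0238% and 0.00476% of bodies. Among the flanking genes, 1 start window was called by genotype, that of Cdx1 beside Csf1r at E10.5 (7.27 points higher in the mutants, adjusted p = 0.0351), and no body was.

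The third comparison set the stages beside each other, with the genotypes averaged. From the E10.5 embryo to the E14.5 liver, tissue and stage change together, so their parts cannot be told apart. Between the liver stages the organ is the same, but the paper describes a different mix of cell types. Sex differs in part: E14.5 replicate 1 is male, like the embryos, and replicate 2 is female, like the E18.5 livers. The part of sex was not tested, and the depth differs as well. The macrophage genes were less methylated in E14.5 liver than in the E10.5 embryo at every tested start window and body. By edgeR's test 8 of 8 start windows were lower, against 46.4% of all windows, and 9 of 9 bodies, against 78.4% of all bodies. The median change was -23.0 points for start windows (all windows -0.683) and -20.9 points for bodies (all bodies -10.4).

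A window with next to no methylation in the embryo cannot fall, and such windows were not counted. Of the windows with at least 60% methylation in wild-type E10.5 embryos, a limit chosen after values were seen, 97.1% of 6,430 were called lower, with a median of -20.5 points and quartiles of -26.0 and -15.2. The same limit for bodies gave 96.0% of 13,883 and a median of -15.2 points, with quartiles of -20.4 and -9.40. Against these, the members' calls are at the background. Their median lies between the quartiles for start windows and, at -20.9 points, just past the lower quartile for bodies. The C1qa body, at 53.0% and 54.2% in the wild-type embryos, is itself under the limit of 60%.

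Mrc1 had the largest fall of the start windows. It was at 75.4%, 80.3%, 78.9% and 80.5% in the 4 embryos (wild type 1 and 2, then mutant 1 and 2), at 40.0%, 34.7%, 45.5% and 39.2% in the E14.5 livers and at 53.1%, 55.6%, 59.4% and 58.3% in the E18.5 livers. No stage overlapped another. From E10.5 to E14.5 it fell by 38.9 points (edgeR adjusted p = 3.35e-08), and 1.17% of all windows fell by more. That share is of all windows, and those with little methylation in the embryo could not fall so far. The rise to E18.5 was 16.8 points (edgeR adjusted p = 0.00610), and 16.5 points without E18.5 mutant replicate 1.

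The stretches of Mrc1 printed above differ among themselves. The 4 CpGs before the start were at 48.9% to 52.4% in the embryos, 17.6% to 25.9% in the E14.5 livers and 24.5% to 33.7% in the E18.5 livers. The 11 CpGs of the first intron near the start went from 85.7% to 90.0% in the embryos to 28.8% to 41.8% at E14.5 and 60.2% to 70.3% at E18.5. The 4 CpGs farther into that intron went from 77.4% to 87.0% to 17.3% to 33.1% and then 34.8% to 54.1%. In each stretch the stages did not overlap other than in the first, where E14.5 and E18.5 met. The 11 and 4 intron CpGs as groups began higher than the 4 before the start, which differed among themselves in the embryos, with means of 31.7%, 36.4%, 61.7% and 80.5% from the farthest to the nearest to the start. In E14.5 liver these were at 13.4%, 10.1%, 26.4% and 31.8%.

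Csf1r fell from 77.6%, 81.3%, 86.2% and 74.9% in the embryos to 48.2%, 46.8%, 54.2% and 55.4% in the E14.5 livers, and stood at 61.0%, 50.9%, 59.7% and 57.3% in the E18.5 livers. Both liver stages lay below all embryos and overlapped each other. The change to E14.5 was -28.8 points (edgeR adjusted p = 1.97e-06), and the later change of 6.06 points was not called (adjusted p = 0.210). The lowest liver level of Csf1r was inside the gene, 2 to 3 kb after its start (18:61267226 to 61268225, 15 CpGs, in its second intron), a window chosen after its values were seen. There it went from 78.6% on average in the embryos to 20.5% at E14.5 (20.8%, 18.8%, 21.5% and 20.9% in the 4 livers) and 30.4% at E18.5.

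The C1q genes fell together at their starts. C1qa (31 CpGs) went from 74.1%, 73.0%, 77.9% and 72.8% in the embryos to 50.2%, 50.8%, 52.2% and 46.5% at E14.5, a change of -24.5 points. C1qb (26 CpGs) changed by -28.1 points, from 77.9% to 81.3% over the embryos to 47.6% to 53.9% over the E14.5 livers, and C1qc (7 CpGs) by -21.5 points. Their adjusted p values by edgeR were 5.40e-07, 1.64e-07 and 4.29e-05. The C1qa body was the least methylated of the 9 bodies at each stage, at 53.0% to 65.2% in the embryos and 37.6% to 44.9% in the E14.5 livers. Its last exon (exon 3) lies in a window 2 to 3 kb after the start (4:136451719 to 136452718, 32 CpGs, chosen after its values were seen) that was low throughout, at 21.9%, 21.1% and 19.96% on average in embryos, E14.5 and E18.5 livers.

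Cd68 had the smallest fall, both at its start window (20 CpGs, -18.45 points, edgeR adjusted p = 7.88e-06) and over its body (27 CpGs, -12.0 points, adjusted p = 4.95e-12). Its body was at 87.3% to 88.2% in the embryos and 75.1% to 76.4% in the E14.5 livers. Emr1 changed by -19.96 points at its start (adjusted p = 0.000193) and by -23.6 points over its body, the largest body change of the 9. Its body (259 CpGs) went from 83.5% to 85.2% to 59.3% to 63.3%.

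Cd5l was the most methylated start window of the 8 in the E14.5 and E18.5 livers on average, though its RNA was among the most abundant per length. It was at 89.1%, 91.0%, 93.2% and 90.5% in the embryos, 69.3%, 73.0%, 72.0% and 67.7% in the E14.5 livers and 76.9%, 76.3%, 84.2% and 75.7% in the E18.5 livers. The 3 stages did not overlap, with a change of -20.5 points to E14.5 (edgeR adjusted p = 9.94e-07) and 7.78 points to E18.5 (adjusted p = 0.0450). The intron CpGs of Cd5l shown above were lower than the start window at each stage, going from 71.4% to 77.6% in the embryos to 16.4% to 27.0% at E14.5 and 16.7% to 39.3% at E18.5.

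Vsig4, with hardly any RNA, was read at its start only in part. The 2 CpGs common to all libraries were at 77.4% to 85.7% in the embryos and 51.9% to 79.4% in the E14.5 livers, on few reads. The 7 CpGs usable within E14.5 alone gave 71.4%, 70.2%, 80.0% and 74.2%, so the wild types lay below the mutants there. Its body (82 CpGs) went from 87.3% to 89.4% in the embryos to 66.2% to 69.0% in the E14.5 livers, a change of -20.5 points (edgeR adjusted p = 1.19e-22), although its RNA was near absent. The gene is on chromosome X, and the E14.5 livers are of both sexes.

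**Figure D4:**
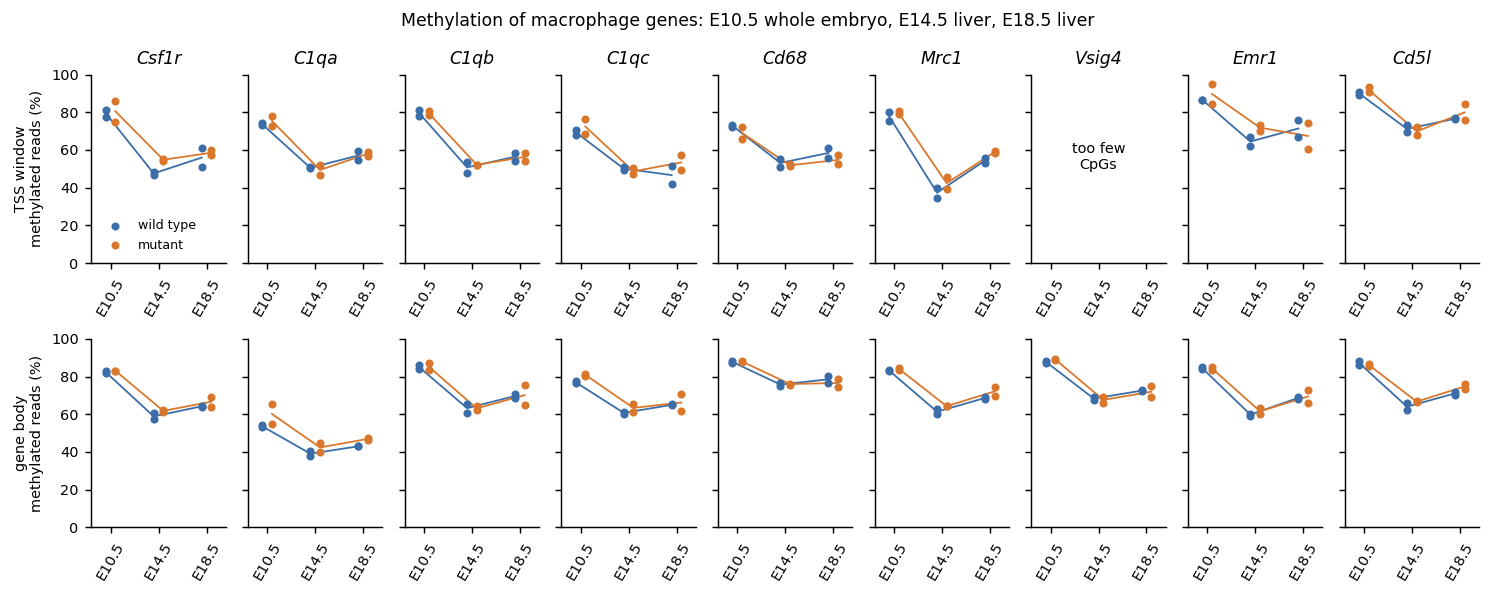
Methylated reads in percent (vertical axes, 0 to 100) at the start window and over the body of each gene, by stage and genotype, each point being 1 library. Every tested region is lower in the E14.5 livers than in the E10.5 embryos, and by more than the genotype means differ at any stage. Wild-type and mutant points overlap at some regions and are apart at others, such as the start windows of Csf1r and Emr1 at E14.5, where both mutants are higher.

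From E14.5 to E18.5 liver, methylation rose at some of the genes. Of the start windows 3 of 8 were called higher, against 10.9% of all windows: Mrc1, Cd5l and C1qa (7.62 points, edgeR adjusted p = 0.0459). The others changed by 0.644 to 6.06 points and were not called. Without E18.5 mutant replicate 1, C1qc and Emr1, at 0.644 and 1.26 points with it, turned to -1.29 and -2.22 points, so 6 windows were above 0 and 2 below. Of windows at 60% or more in the embryo 29.0% were called higher, with a median of 5.97 points against 5.49 for the members. The calls of Cd5l and C1qa sit at the edge of the threshold, and with at least 10 reads per CpG only Mrc1 was called. Leaving out 1 library at a time gave 1 to 3 calls, with Mrc1 alone in 8 of 12 cases, including the one without E18.5 mutant replicate 1, where Cd5l stood at 5.67 points (adjusted p = 0.134) and C1qa at 8.12 points (adjusted p = 0.0744).

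Of the bodies 6 of 9 were called higher, against 42.5% of all bodies and 58.6% of bodies at 60% or more in the embryo. The members' median was 5.11 points, against 4.51 points over those bodies, so the count is near the background. The called bodies were Emr1 (8.34 points, edgeR adjusted p = 1.07e-05), Mrc1 (7.59 points, 7.18e-06), Cd5l (7.55 points, 0.000117), C1qb (6.70 points, 0.00334), Csf1r (5.11 points, 0.00213) and Vsig4 (4.25 points, 0.0278). C1qa (4.22 points), C1qc (3.54 points) and Cd68 (1.68 points) were not called. Without E18.5 mutant replicate 1, the library that stood apart, 4 were called, namely Csf1r, Mrc1, Emr1 and Cd5l, at 3.76 to 6.97 points.

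Windows of 1 kb from before each start to past each end show where the fall lay. The share of all such windows in the genome that fell was not taken. The autosomes as a whole fell too, from 70.6% to 73.9% at E10.5 to 56.4% to 60.3% at E14.5. The size of the fall was uneven, with changes of -61.9 to -4.38 points at Mrc1 and -58.1 to -6.65 points at Csf1r. At Csf1r 46 of 46 windows were less methylated on average in E14.5 liver than in the embryo, at Mrc1 69 of 69, at Emr1 44 of 44, at Cd5l 28 of 28 and at Vsig4 12 of 12. At C1qb it was 23 of 23, at C1qc 21 of 21 and at C1qa 21 of 22, where windows of neighbouring C1q genes partly overlap. At Cd68 it was 17 of 21, with a median change of -8.71 points and a largest rise of 19.7 points, 10 to 11 kb after the start and past the end of the gene. At the other 8 genes the medians were -25.2 to -18.3 points, and the largest rise was 1.48 points, in a window at C1qa. The deepest change was at Mrc1, 3 to 4 kb after the start (2:14154041 to 14155040, 4 CpGs, first intron), from 83.9% to 22.0%, with 43.2% at E18.5. At Emr1 it was 3 to 4 kb after the start (17:57501109 to 57502108, 5 CpGs, from exon 2 into the second intron), from 82.3% to 40.8%, with 59.0% at E18.5, and at Cd5l 11 to 12 kb after the start (3:87172803 to 87173802, 5 CpGs), from 80.4% to 36.4%, with 42.7% at E18.5. These windows were chosen after their values were seen and carry no test.

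**Figure D5:**
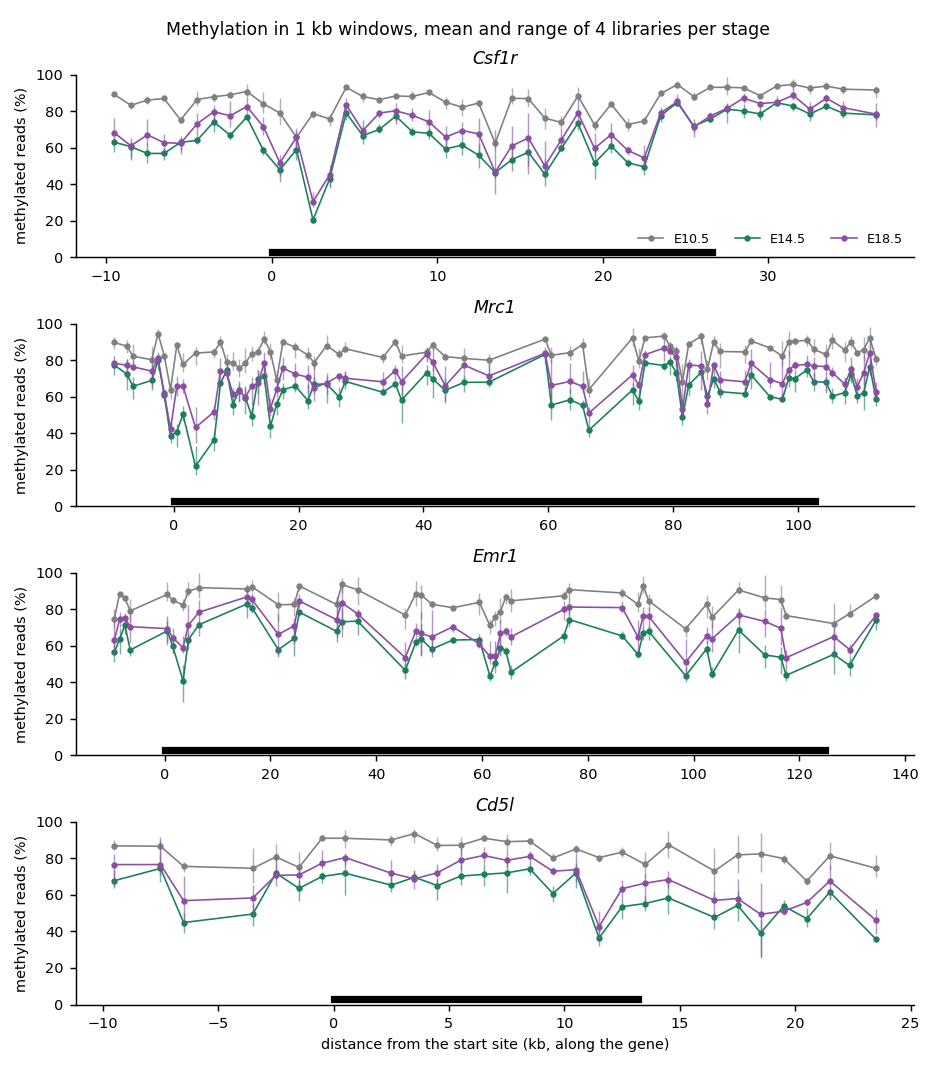
Methylated reads in percent (vertical axes, 0 to 100) in 1 kb windows along the genes, plotted by distance from the start in kilobases, as the mean of the 4 libraries of each stage. The black bar marks the gene. The E14.5 line lies below the E10.5 line throughout Csf1r, Mrc1, Emr1 and Cd5l, with the deepest dips inside Csf1r (20.5%) and Mrc1 (22.0%).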

How the data were processed

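RNA-seq was measured in 6 E14.5 livers and whole-genome bisulphite sequencing in 12 samples. The RNA-seq values are raw counts per Ensembl gene, deposited by the authors after alignment with Tophat and counting with htseq-count without regard to strand. The bisulphite values are methylated and unmethylated read counts per CpG, deposited by the authors after Bismark with Bowtie2 on mm9 carrying FVB/NJ substitutions, with PCR duplicates removed. The percent that the authors deposited beside them is rounded and was not used. Of the 22 samples of the series, those of H3K4me1 ChIP-seq were not analysed here.

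RNA counts were tested with edgeR 4.0.16 (quasi-likelihood, TMM, default filter) in R 4.3.3, and called at an adjusted p under 0.05. Regions with at least 3 CpGs of at least 6 reads were tested with edgeR on both counts, with 1 intercept per library and 6 groups in 1 fit. The methylation test was tried on simulated start windows, for the genotype difference at E14.5 only. CPM and RPKM used TMM library sizes, and RPKM the merged exon length over all annotated transcripts. Intervals at 95% use the standard error and a normal approximation and cover the spread between these samples only. The labels name separate samples, so p-values measure a spread between embryos. The paper describes the E14.5 bisulphite livers as littermates, so spread between litters may be missing there. The methylation test shares 1 estimate of spread over its 6 groups, so its p-values do not measure the spread within 1 stage alone. It also borrows spread across all regions tested, so very small p-values do not rest on a region's own libraries alone. No 2 RNA-seq libraries were duplicates.

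Deviations of same-numbered RNA-seq livers correlated at r = 0.125, 0.226 and 0.409, and those of differently numbered livers at -0.286 to 0.0901. The same-numbered values exceed 0.1, the level set for pairing, but the labels do not state a pairing. The main test therefore has no block, and calls with replicate number as a block are given as an alternative. Replicate 3 is the female of each genotype, so shared sex and pairing cannot be told apart there.

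Genes were named by rule: the 9 members, Rlf, list genes that passed the test, the 2 most abundant genes of each list, the flanking genes and the 5 genes most like Csf1r and Cd5l. Csf1, Nr1h3, Spic, Timd4, Prtn3, Ctsg and list genes called under an alternative alone were named besides, after their values were seen. The members and lists were chosen with earlier results of these data known. Alternatives covered normalization (RLE), the low-count filter, sex, replicate number as a block, DESeq2 1.42.0, the read and CpG minimums, averaging of CpGs, other starts, separate fits per stage, bodies without the start window, and each library left out.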

Additional observations from a re-analysis of the deposited data

How the results depend on the processing

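Cd5l was called in every alternative run for RNA, with a log2 fold change of -1.31 to -1.03 and an adjusted p of 1.16e-10 (no filter) to 0.00836 (edgeR, without mutant replicate 1), DESeq2 giving -1.19 (adjusted p = 2.63e-05). No other member was called in any of them. Genes called over all genes numbered 197, and 532 with no filter on low counts, 460 with replicate number as a block, 258 by DESeq2 and 66 to 224 with 1 liver left out. List genes called numbered 12, and 26 with no filter, 20 with the block and 4 to 14 with 1 liver left out. The causes of these moves were not tested. The block made no member gain or lose an RNA call.

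For methylation, all falls from E10.5 to E14.5 were called with any library left out (8 start windows, 9 bodies). The start windows called higher at E18.5 numbered 1 with at least 10 reads per CpG and 1 to 3 with 1 library left out, and the bodies 4 to 7. By genotype, 1 body was called at E10.5 with the start window left out of the span (C1qa), 0 to 1 with 1 library left out, and 0 to 1 at E18.5. Correlations of same-numbered bisulphite libraries (start windows 0.0661, -0.0339 and -0.0236, bodies 0.155, 0.0210 and -0.0077 at the 3 stages) exceeded 0.1, the level set for pairing, for bodies at E10.5 and not in the other 5 cases, so the numbers were not taken to pair these libraries, and replicate number within stage as a block left 0 members called by genotype.

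Depth limits Vsig4 most, with 4 to 11 counts per liver and 2 CpGs at its start. With 2 bisulphite libraries per group, differences between the genotypes of a few points cannot be resolved. Whole tissue was read, so cell composition and change within macrophages cannot be told apart.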
